A study of Mus musculus with 3 samples.

Results

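Satellite glial cells (SGCs), the flat glia that wrap the cell bodies of sensory neurons in the dorsal root ganglion (DRG), were taken from single-nucleus RNA sequencing by a gate on marker transcripts. A barcode was counted as an SGC nucleus when it held over 1000 genes, at least 3 unique molecular identifiers (UMIs, each standing for 1 captured RNA molecule) summed over 8 SGC markers and drawn from at least 2 of them, and at least 2 times as many of those UMIs as UMIs of 6 genes of neurons, Schwann cells and fibroblasts. The markers were Fabp7, Bcan, Kcnj10, Acsbg1, Megf10, Cacng4, Cyp4f15 and Cnmd, and the excluding genes were Snap25, Scn9a, Prx, Ncmap, Scn7a and Col1a1. Of 19259 barcodes with over 1000 genes, 4207 met the rule, 3506 of 11518 in the adult library, 460 of 5130 in aged replicate 1 and 241 of 2611 in aged replicate 2.

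Nuclei came from the L3, L4 and L5 DRG of C57BL/6 mice with no allele, injury or drug given in the labels, labelled as 3 months (adult, 1 library) and 21 months (aged, 2 libraries) of age. The description of the whole series gives the aged mice a lower age, and the age on the labels was used. The labels call all mice male, whereas the study's methods list aged mice as female and adults of both sexes, and the libraries themselves went against the label. Xist, the RNA that coats the inactive X chromosome of females, stood at 2289, 1595 and 1532 CPM in SGC nuclei and had a UMI in 98.4%, 95% and 97.1% of them, while the Y-linked genes Eif2s3y, Kdm5d and Uty stood at most at 1.63 CPM. Y-linked Ddx3y, which has a close copy on the X chromosome, stood at 14.5, 9.95 and 5.13 CPM, under its level of 67.2, 43.2 and 35.6 CPM in free RNA, the RNA in barcodes of 10 to 100 UMIs. How many mice went into each library was not given in the sources used here. Since the adult group was 1 library, whatever else set it off from the aged pair cannot be told apart from age, and the spread in every age test came from the 2 aged libraries and from the spread that edgeR, a count model, shares over genes. Below, values are levels in CPM, the UMIs of a gene scaled to 1000000 UMIs summed over the gated nuclei, listed in the order adult, aged replicate 1, aged replicate 2.

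SGCs form a closed sheath around each sensory neuron, with a basal lamina on the outer side and gap junctions between neighbouring glia. They take up potassium and neurotransmitter from the narrow space around the soma, supply lipid and metabolites, and share a neural crest origin and many genes with Schwann cells. Like most cells they answer interferons by way of STAT transcription factors, which drive guanylate-binding proteins, immunity-related GTPases and the machinery that loads peptides on MHC class I.

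The members were deeper in the aged libraries. The median member held 3201, 7214.5 and 7531 UMIs, and 1705.5, 3097 and 3130 genes. Summed over members, the 3 libraries gave 12253827, 3920351 and 1949123 UMIs, out of 167664164, 95647106 and 69045987 UMIs in all barcodes. Between 53.8% and 58.4% of each library's UMIs lay in barcodes with over 1000 genes, and no SGC barcode was shared between libraries.

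The gate genes are given as a description, since they chose the nuclei. Fabp7, a fatty acid binding protein of glial precursors and SGCs, stood at 396, 174 and 174 CPM, higher in the adult than in either aged library. The proteoglycan core protein Bcan stood at 483, 449 and 416 CPM and the inward rectifier potassium channel Kcnj10 at 159, 189.5 and 169 CPM. Acsbg1, which activates long-chain fatty acids, stood at 615, 507 and 595 CPM and the engulfment receptor Megf10 at 583, 553 and 660.3 CPM. The AMPA receptor auxiliary subunit Cacng4 stood at 239.8, 184 and 220.1 CPM, Cyp4f15 at 96.9, 126 and 144 CPM and Cnmd at 190.2, 166 and 189.8 CPM. In kept nuclei that were not members Bcan stood at 28.6, 28.6 and 19.3 CPM. Of the excluding genes, Snap25 was the most abundant in members, at 113, 136 and 103 CPM, against 709, 649 and 579 CPM in kept nuclei that were not members.

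Many members lay near the threshold in the adult library. The median member held 8, 16 and 19 marker UMIs, and 217, 13 and 3 members held exactly 3. Just outside, 865, 351 and 167 barcodes held 2 marker UMIs. A further 1114, 527 and 203 barcodes met the marker rule and failed only the ratio, with median totals of 13392, 13637 and 21230 UMIs, far above those of the members. Ratios from 2 to 3 were held by 200, 59 and 24 members, and ratios from 1 to 2, just outside, by 283, 99 and 34 barcodes. The share of members with no UMI of an excluding gene was 49.2%, 25.2% and 31.1%.

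Markers that the gate did not use were, with several exceptions, abundant in members. Over 12 further SGC markers the summed level was 3844, 4328 and 3740.1 CPM in members and 655, 621 and 390.2 CPM in nuclei gated in the same way as myelinating Schwann cells (459, 372 and 131 nuclei). The same sum was 1396, 1735 and 1386 CPM in nuclei gated as non-myelinating Schwann cells and 1946, 2117 and 1694 CPM in free RNA. Ptprz1, a receptor phosphatase of glia, stood at 1266, 1445 and 1290.3 CPM in members and 26.9, 11.7 and 8.10 CPM in the Schwann gate, Cdh20 at 487, 574 and 501 CPM and the matrix protein Fbln2 at 499.7, 404 and 424 CPM. The endothelin B receptor gene Ednrb stood at 154, 159 and 179 CPM, with no difference by age that passed the test (log2 fold change -0.00, SE 0.16, edgeR adjusted p = 0.999). Apoe, the lipid carrier, reached 946, 1239 and 917 CPM, but free RNA held 1328, 1496 and 1179 CPM. Glul and Aldoc were no higher than in free RNA in the aged libraries, and the neurotensin receptor Ntsr2 was nearly undetected at 0.571, 1.02 and 0.513 CPM.

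Transcripts of non-myelinating Schwann cells and of sensory neurons were common in members, and the lists of other cell types summed lower. Over 7 non-myelinating Schwann markers the summed level was 1905, 2288 and 2415 CPM in members and 3607, 5030.3 and 5171 CPM in nuclei gated as such cells, and over 5 markers of that gate, Scn7a left out, 1535, 1545 and 1558 CPM and 2871, 3722 and 4166 CPM. The summed level of 13 sensory neuron markers was 2614, 2375 and 1675 CPM in members and 17235, 24538 and 21994 CPM in free RNA. The 10 myelinating Schwann markers summed to 875, 831 and 656 CPM against 50524, 18262 and 15598 CPM in the Schwann gate. Of these 10 markers 6 helped choose the nuclei of that gate, as did 5 of the 7 non-myelinating markers for theirs. Both contrasts with Schwann gates were therefore partly fixed by the gating and are descriptions only. Fibroblast markers summed to 260.1, 323 and 228 CPM, endothelial markers to 97.8, 88.8 and 40.02 CPM, mural markers to 145, 89.3 and 85.2 CPM, myeloid markers to 62.9, 47.2 and 77.98 CPM and lymphocyte markers to 60.3, 31.1 and 44.1 CPM. In all other kept nuclei, those in none of the 3 gates, fibroblast sums were 227, 178 and 118 CPM, under those of members. Endothelial sums there were 140, 151 and 108 CPM and mural sums 130, 92.1 and 91.2 CPM. Myeloid sums there were 95.5, 95.8 and 100 CPM and lymphocyte sums 57.0, 60.8 and 38.6 CPM. No marker of these lists was at 0 in all 3 libraries. From 7 neuronal transcripts (Tubb3, Prph, Nefl, Nefm, Nefh, Uchl1 and Calca), the share of member UMIs that matched free RNA was estimated at 15.4%, 9.36% and 7.30%, higher in the adult library than in both aged ones.

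**Figure D1:**
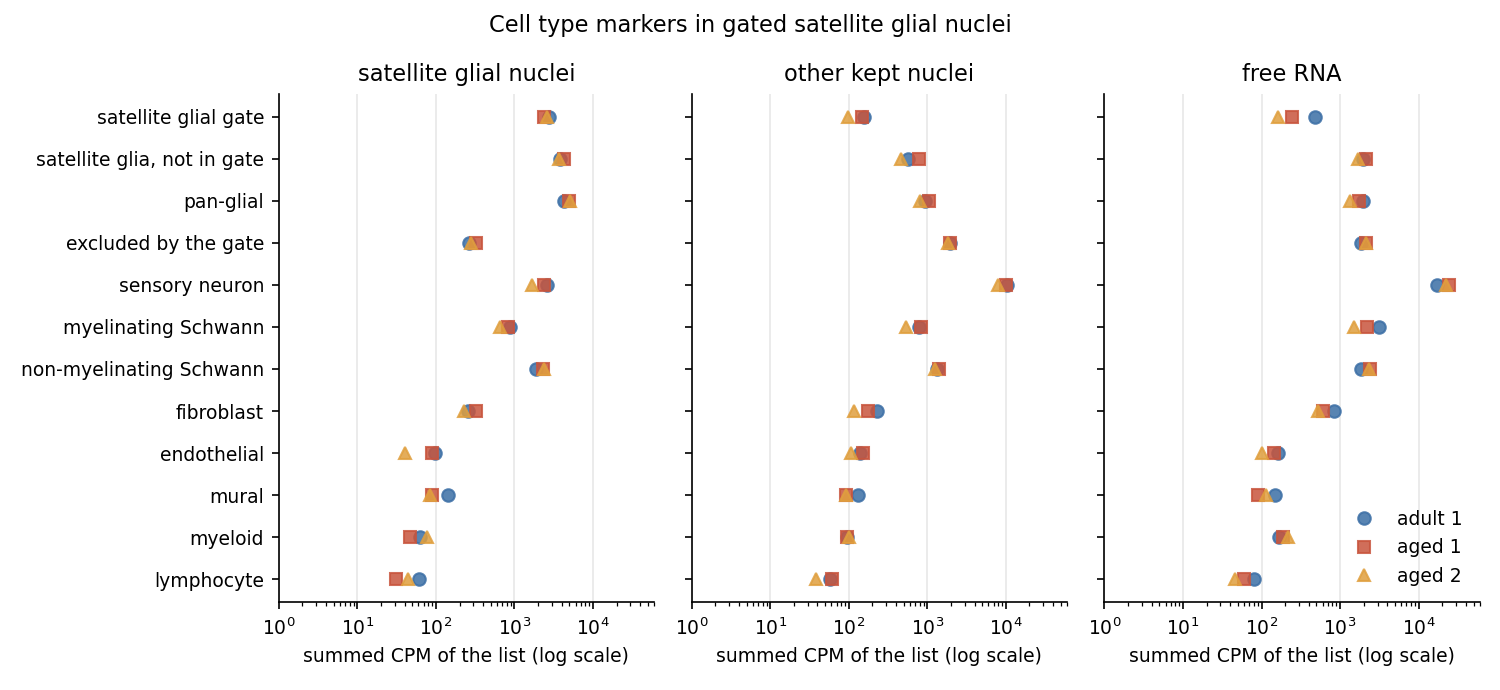
Summed CPM of each marker list (horizontal, log scale) in gated SGC nuclei, in all other kept nuclei (those in none of the 3 gates, SGC or Schwann) and in free RNA, with 1 point per library. In SGC nuclei the satellite glial lists reach 2347 to 4328 CPM in every library, while sensory neuron markers, at 17235 to 24538 CPM in free RNA, lie between 1675 and 2614 CPM.

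SGC nuclei made up 30.4% of kept barcodes in the adult library (exact 95% interval 29.6 to 31.3%), 8.97% (8.20 to 9.78%) in aged replicate 1 and 9.23% (8.15 to 10.4%) in aged replicate 2. The aged mean was 9.10% ± 0.186 (SD, n = 2), and the adult share was 3.35 times as high. With 3 libraries an exact permutation test cannot go below p = 0.33, which is the two-sided value here, and the intervals cover counting error only. The ratio moved with the limits of the gate, to 1.40 among barcodes with over 2000 genes (18.95% against 13.9% and 13.2%) and to 5.84 when members had to lack every excluding UMI, and was 3.43 when nuclei were thinned to 1000 UMIs before gating. A smaller share of nuclei in suspension and a smaller share of cells in tissue cannot be told apart here.

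Set against Schwann nuclei of the same libraries, SGC nuclei differed widely. Between SGC and myelinating Schwann sums, with library as a block, 4748 of 13726 genes passed edgeR's test (34.6%), 2381 higher and 2367 lower in SGCs. Against a gate on markers of non-myelinating Schwann cells (742, 582 and 248 nuclei), which by its Dcn and Col1a2 levels also held fibroblast-like nuclei, 5969 of 13726 passed (43.5%), 20.4% of the genes higher in SGCs. When nuclei with fibroblast UMIs or with no Cdh19 UMI were left out of that gate, 680 of 12117 passed. Of the 5969 calls 5284 were fitted there, of which 4528 kept their direction and 608 were called again. Of the 18 genes that the naming rules gave here, 13 kept the call. Of genes not used by a gate, the 12 that stood highest above both Schwann gates included adhesion and scaffold genes.

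Ctnnd2, a catenin of adherens junctions, stood at 3988, 3060.4 and 3388 CPM in SGCs and 93.7, 42.5 and 30.8 CPM in myelinating Schwann nuclei (log2 fold change 6.22, SE 0.35, edgeR adjusted p = 5.16e-08). Shank2, a scaffold of postsynaptic densities, stood at 565, 517 and 613 CPM and 13.1, 2.47 and 4.86 CPM (log2 fold change 6.57, SE 0.43, edgeR adjusted p = 1.88e-07). The netrin receptor Dcc stood at 239.7, 949 and 855 CPM and 19.2, 7.40 and 8.10 CPM, a gap present at both ages and wider in the aged libraries. Kcnj16, a subunit that pairs with the Kcnj10 channel used in the gate, stood at 43.3, 59.4 and 45.7 CPM against 1.54, 0.617 and 0 CPM. The Notch pathway feedback gene Nrarp stood at 63.7, 70.9 and 77.5 CPM and 3.07, 3.08 and 0 CPM, and it and Kcnj16 were so near 0 in Schwann nuclei that higher in SGCs was the only possible call. Fras1, a basement membrane protein, stood at 303, 428 and 521 CPM and 13.8, 7.40 and 3.24 CPM. The zinc finger gene Zfp663, the kinase Ripk4, 2900052N01Rik, Gdpd2, Myo16 and Gm47591 completed the group. Among the 6 lowest against both gates, the growth factor Fgf7 was at most 1.80 CPM in SGCs.

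Between adult and aged SGC sums, 1480 of 15080 genes tested passed an adjusted p of 0.05 (9.81%), 532 higher in aged (3.53%) and 948 lower (6.29%), and 3040 had an unadjusted p under 0.05. The median log2 fold change over all genes was -0.01. Subtracting free RNA at each library's estimated share gave 888 calls, 481 higher and 407 lower, of which 611 were among the 1480 with the same sign, so the share of higher calls moved from 35.9% to 54.2%. DESeq2, a second count model, called 256 genes. Of 109 genes that the naming rules gave and that passed the age test, 54 lost the call in DESeq2, 66 with 10% free RNA subtracted and 40 among nuclei of 2000 to 3000 genes. The call held in every alternative that gave an adjusted p for 31 genes, which were Iigp1, Gbp2, Gbp4, Nlrc5, Tap1, Ddx60, Slc1a2, C4b, Ntm, Magi1, Cdh6, Hes1, Id4, Gli3, Erbb4, Epha5, Lif, Bmp6, Sema3e, Malat1, Neat1, Bc1, Gt(ROSA)26Sor, Lrp1b, Dcc, Dgkb, B3galt1, Lrrc7, Rasgrf1, Tyrp1 and Col19a1. Of the genes given below with an age call, leaving out an aged library moved the log2 fold change by over 1.5 times for Pln, Clu, Fabp5, Astn1, P2ry14, Chsy3, Abat, Cspg5, Pde4b, Tnc and Vim. The same kind of comparison gave 9.92% of 12363 genes in myelinating Schwann sums, 3.67% higher and 6.25% lower, and 10.6% of 22721 in all other kept nuclei, those in none of the 3 gates, where 2.93% were higher and 7.68% lower. Of the lists below, DESeq2 called 17 GTPases higher, 3 signalling and antiviral genes, 5 class I genes, 3 matrix genes, 1 uptake gene and 0 clock genes. The shares of all genes given here, 3.53% higher and 6.29% lower, are the background for the count of rises and falls in every list that follows. Gene lists were chosen with earlier results known, and their counts describe them and are no independent evidence of a direction.

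**Figure D2:**
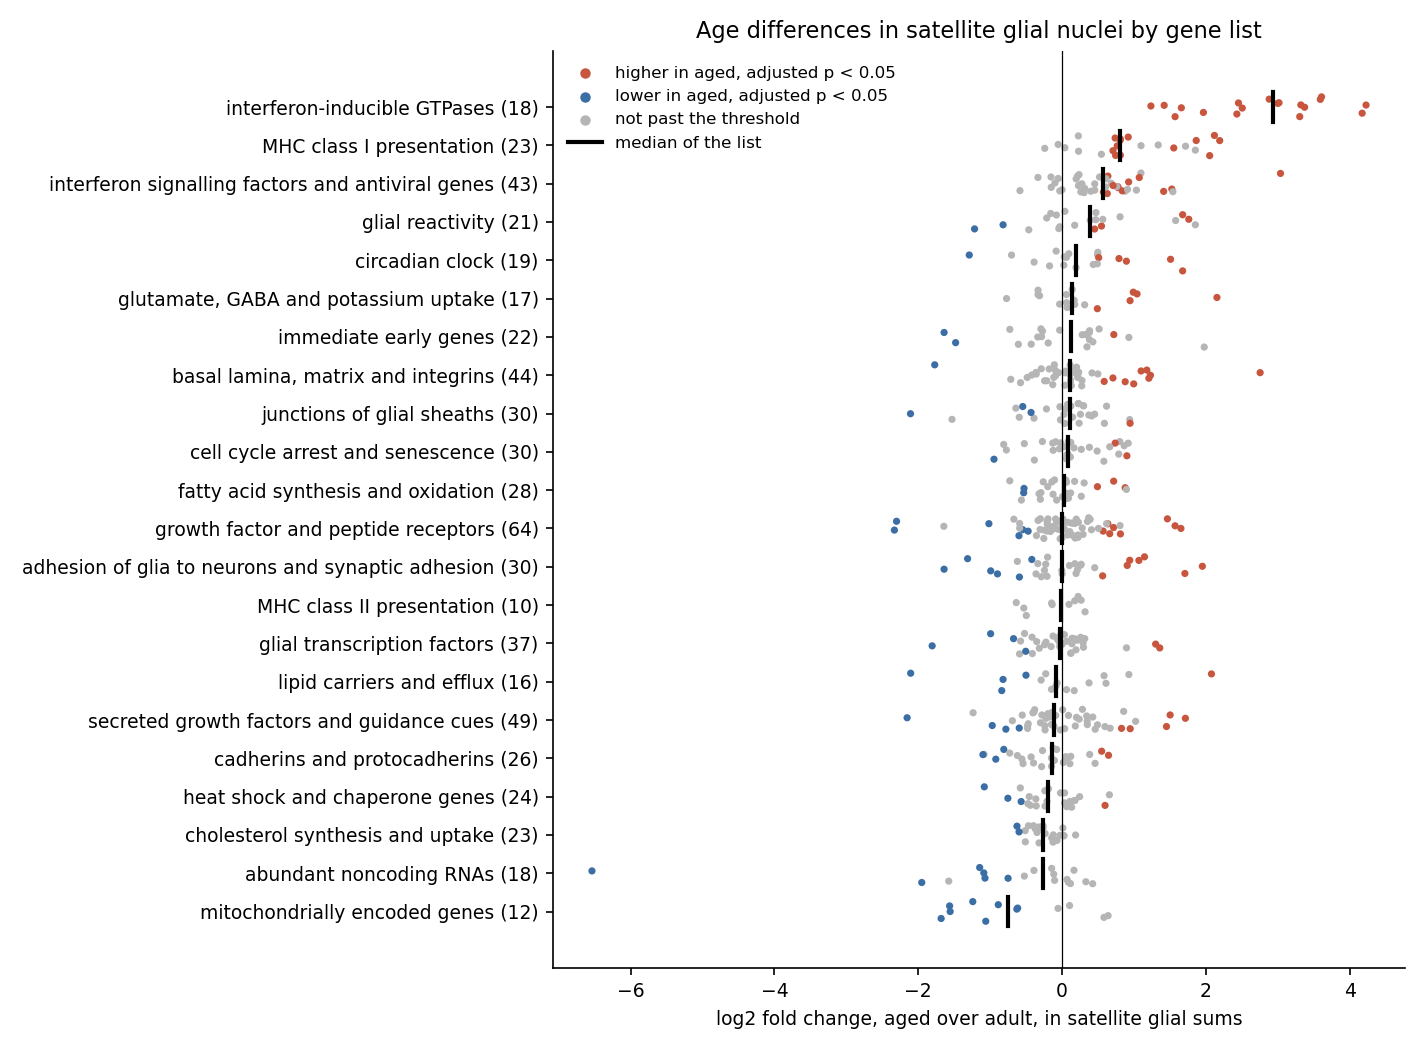
Log2 fold change, aged over adult, of each gene tested (points) in each list, with the number tested in parentheses and the list's median as a bar, red and blue for higher and lower calls and grey for the rest. Interferon-inducible GTPases lie to the right as a group (median 2.94), MHC class I genes follow (0.81), and mitochondrially encoded genes lie to the left (-0.76).

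Interferon-inducible GTPases had the highest median of the lists in aged SGCs. Of 23 listed members 18 passed the filter on low counts, and 18 of these 18 were higher in aged sums, beside 3.53% of all genes. The count was 14 of 18 among nuclei of 2000 to 3000 genes, 12 of 18 with 10% free RNA subtracted and 8 of 16 after thinning each nucleus to 1000 UMIs, with none lower in any of these. Gbp9, Tgtp1 and Tgtp2 were below the filter in the adult sum and passed through the aged ones, so for these a rise was the only possible call. Summed over the list, SGCs held 172, 1059 and 915 CPM, with both aged libraries above the adult. Free RNA held 132, 331 and 207 CPM and the myelinating Schwann gate 113, 716 and 423 CPM.

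Iigp1, an immunity-related GTPase that acts on parasite vacuoles, had 5.79, 82.1 and 71.8 CPM (log2 fold change 3.61, SE 0.26, edgeR adjusted p = 4.05e-41). Gbp2, a guanylate-binding protein, had 5.79, 81.9 and 46.2 CPM (log2 fold change 3.37, SE 0.26, edgeR adjusted p = 1.22e-34), and Gbp5, known for its part in inflammasome activity, 4.33, 45.9 and 48.2 CPM (log2 fold change 3.31, SE 0.29, edgeR adjusted p = 7.27e-28). In each of the 3 both aged libraries lay far above the adult. Gbp4 had 3.51, 59.7 and 29.8 CPM (log2 fold change 3.59, SE 0.29, edgeR adjusted p = 4.77e-31) and Ifi47 3.43, 32.7 and 27.7 CPM (log2 fold change 3.02, SE 0.33, edgeR adjusted p = 4.92e-17). The adult level of Gbp9 rested on 17 UMIs and that of Tgtp2 on 24, for 1.39, 30.9 and 26.2 CPM (log2 fold change 4.23, SE 0.40, edgeR adjusted p = 1.74e-23) and 1.96, 41.8 and 35.4 CPM (log2 fold change 4.18, SE 0.34, edgeR adjusted p = 5.99e-32). The other GTPases tested ran from Gvin1 (log2 fold change 1.24) to F830016B08Rik (3.32). Reads of near-identical members, such as Tgtp1 and Tgtp2 or the clustered Gbp genes, may be split between copies by the counting, so single values within the family are uncertain.

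Promoter windows of 3 of these GTPases, from RefSeq on GRCm38.p6, each running from 250 bases before to 50 bases after a gene's start and read along the gene's strand, are printed because their genes moved together. Capitals mark matches, on either strand, to 2 motifs of interferon control, the core of the interferon-stimulated response element (ISRE) written TTTCNNTTTC and the core of the gamma-activated site (GAS) written TTCNNNGAA. The windows are Gbp2 at chr3:142620413-142620712 on the plus strand, Gbp5 at chr3:142496684-142496983 on the plus strand and Tgtp2 at chr11:49064163-49064462 on the minus strand.
Gbp2: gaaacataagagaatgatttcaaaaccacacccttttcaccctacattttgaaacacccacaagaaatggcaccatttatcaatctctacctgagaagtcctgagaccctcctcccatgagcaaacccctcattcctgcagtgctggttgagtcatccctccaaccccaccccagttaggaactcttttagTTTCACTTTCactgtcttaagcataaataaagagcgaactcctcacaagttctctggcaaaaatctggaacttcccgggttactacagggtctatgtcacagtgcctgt
Gbp5: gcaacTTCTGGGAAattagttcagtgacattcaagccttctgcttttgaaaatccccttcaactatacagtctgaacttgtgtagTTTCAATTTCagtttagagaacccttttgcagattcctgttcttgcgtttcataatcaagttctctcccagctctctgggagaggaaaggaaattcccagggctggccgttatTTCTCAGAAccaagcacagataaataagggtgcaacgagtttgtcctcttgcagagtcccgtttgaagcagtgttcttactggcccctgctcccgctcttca
Tgtp2: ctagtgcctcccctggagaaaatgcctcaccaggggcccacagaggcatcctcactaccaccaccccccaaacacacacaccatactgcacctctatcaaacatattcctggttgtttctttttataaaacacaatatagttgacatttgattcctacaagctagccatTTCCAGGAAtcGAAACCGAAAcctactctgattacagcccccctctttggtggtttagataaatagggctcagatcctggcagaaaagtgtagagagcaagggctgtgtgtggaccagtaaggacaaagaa
Gbp2 held 1 ISRE match and no GAS match, Gbp5 held 1 and 2, and Tgtp2 held 1 of each, set close together. Of all 32851 windows in the table, 3.44% held the ISRE core and 8.30% the GAS core. Of the 18 GTPases tested, 9 had a window, under 80% of the list, so a share over the list is void. A match describes letters in the window and shows neither binding nor a cause.

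Of the interferon signalling factors and antiviral genes, 12 of 43 tested rose and none fell, beside 3.53% and 6.29% of all genes, with a median log2 fold change of 0.57. The rises depended on the processing. With 10% free RNA subtracted 3 of 43 rose, with the estimated share 7 of 43, and after thinning 2 of 31. Among nuclei of 2000 to 3000 genes 5 of 37 rose and 1 fell, and above 2000 genes 12 of 43 rose and 1 fell. The RNA helicase Ddx60 had 78.9, 171 and 193 CPM (log2 fold change 1.08, SE 0.17, edgeR adjusted p = 1.91e-08), both aged libraries above the adult. Zbp1, a sensor of nucleic acids, had 2.12, 19.4 and 18.98 CPM (log2 fold change 3.04, SE 0.43, edgeR adjusted p = 1.63e-10), the adult value resting on 26 UMIs and lying under the filter, so that a rise was the only possible call, as it was for Irf7, Ifit3b and Socs1. Ifit3, which binds viral RNA complexes, had 6.28, 20.9 and 14.9 CPM (log2 fold change 1.41, SE 0.35, edgeR adjusted p = 0.00135), beside 11.2, 16.3 and 13.3 CPM in free RNA, and lost the call in DESeq2. Stat2, Irf1, Oasl2, Ifih1, Parp12, Rnf213, Trim30a and Xaf1 also rose, by 0.58 to 0.93 on the log2 scale. Of these factors 37 had windows, 43 in number, and 15 windows held the ISRE core (34.9%) and 10 the GAS core (23.3%), beside 3.44% and 8.30% of all windows.

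MHC class I presentation rose in 13 of 23 tested genes and fell in none (median 0.81), beside 3.53% and 6.29% of all genes. H2-Q6, H2-T23 and H2-M3 passed the filter through the aged libraries only, so for these a rise was the only possible call. The summed level was 718, 1359 and 1301 CPM in SGCs and higher in free RNA, at 1221, 1750.2 and 1838 CPM, which rose with it. With 10% free RNA subtracted 2 genes rose, and with the estimated share 10. Nlrc5, the transactivator of class I genes, had 34.8, 161 and 170.3 CPM (log2 fold change 2.12, SE 0.19, edgeR adjusted p = 1.43e-27), and the peptide transporter subunit Tap1 14.9, 54.8 and 64.6 CPM (log2 fold change 1.87, SE 0.23, edgeR adjusted p = 2.41e-13). Each aged library exceeded the adult one several times over. The class I genes H2-Q4 and H2-Q7, close copies whose reads may be split, had 8.32, 34.2 and 51.3 CPM (log2 fold change 2.19, SE 0.27, edgeR adjusted p = 2.56e-14) and 5.88, 18.9 and 36.9 CPM (log2 fold change 2.05, SE 0.32, edgeR adjusted p = 1.38e-08). The light chain B2m, the heavy chains H2-K1 and H2-D1, and the immunoproteasome subunits Psmb8 and Psmb9 rose by 0.71 to 1.56. Of the class I genes 20 had windows, 22 in number, of which 5 held the ISRE core (22.7%) and 2 the GAS core (9.09%). Of 10 class II genes tested edgeR and DESeq2 each called 0, with 0 at an unadjusted p under 0.05, while edgeR called 3 lower among nuclei with over 2000 genes.

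The interferon genes were not shown to respond differently in Schwann nuclei. In myelinating Schwann sums 11 of 16 GTPases tested rose (median 2.61) and 13 of 42 signalling and antiviral genes rose, as did 4 of 20 class I genes, beside 3.67% of all genes there. In all other kept nuclei 12 of 19 GTPases (median 0.96), 3 of 47 signalling and antiviral genes and 5 of 25 class I genes rose, beside 2.93%. The test of the difference between SGC and Schwann age effects passed for 0 of 18 GTPases, 0 of 40 signalling and antiviral genes and 0 of 20 class I genes. At an unadjusted p under 0.05 stood 3, 6 and 4 of them, and DESeq2 called 0 of the 2, 0 of the 11 and 0 of the 7 to which it gave an adjusted p. For Gbp2 the test gave a difference in log2 fold change 0.48, SE 0.66, edgeR adjusted p = 0.878, and for Iigp1 a difference in log2 fold change 1.06, SE 0.55, edgeR adjusted p = 0.582.

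Counted nucleus by nucleus, with each nucleus thinned to 1000 UMIs, 11.9% of adult SGC nuclei held at least 1 GTPase UMI (exact 95% interval 10.8 to 13.01%), against 37.4% (32.95 to 41.99%) and 36.5% (30.4 to 42.9%) in the aged libraries. Before thinning the shares were 29.4%, 75.2% and 74.3%, at the median depths given above. In the myelinating Schwann gate the thinned shares were 8.71%, 19.9% and 17.6%, and in all other kept nuclei 12.5%, 21.7% and 17.8%. With 3 or more GTPase UMIs there were 34 adult SGC nuclei (0.970%), 74 in aged replicate 1 (16.1%) and 20 in aged replicate 2 (8.30%). The variance over the mean of the count was 1.75, 4.47 and 3.16, above the 1 that counting alone gives in all libraries, a ratio that also rises with the mean, which was 0.165, 1.14 and 0.784 UMIs. The highest count in 1 nucleus was 7, 15 and 11.

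**Figure D3:**
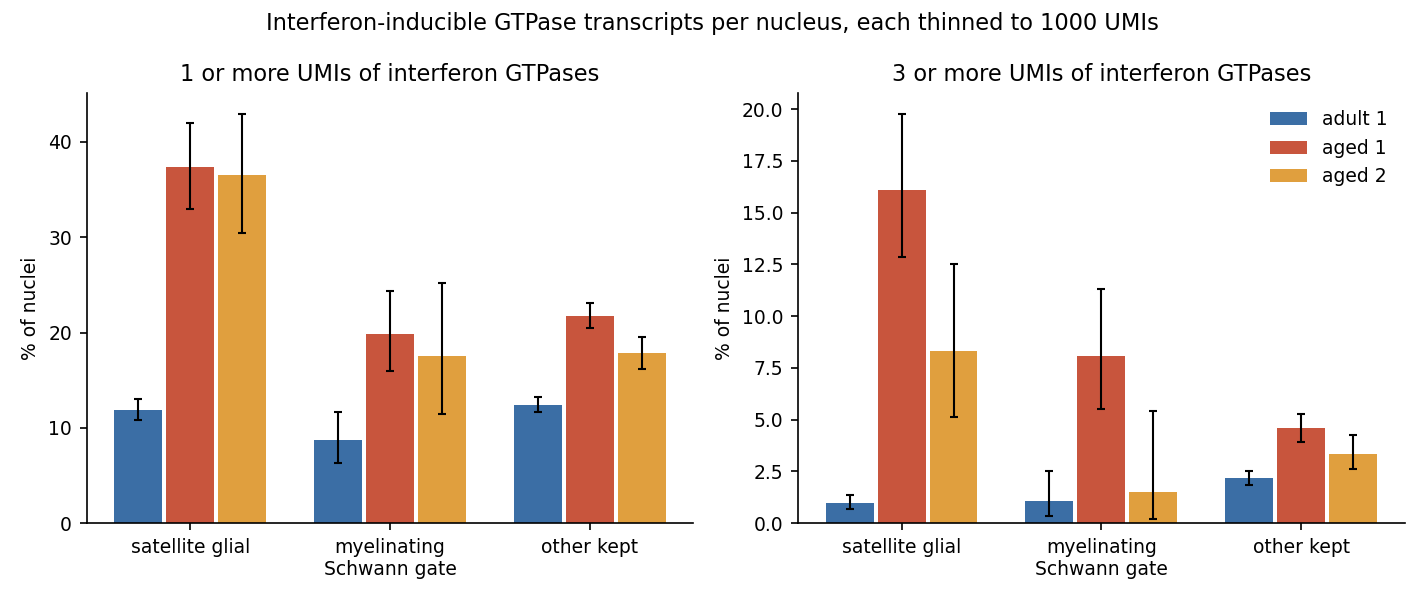
Percent of nuclei (vertical) with 1 or more (left) and 3 or more (right) UMIs of the GTPases after thinning each nucleus to 1000 UMIs, for SGC nuclei, the myelinating Schwann gate and all other kept nuclei, with bars per library and exact 95% intervals. Both aged SGC bars stand at 36.5% and 37.4% on the left, above the adult bar at 11.9%.

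The GTPase-rich nuclei carried other interferon genes as well, a description of nuclei chosen by their own counts and not tested. In nuclei with no GTPase UMI and with 3 or more, Nlrc5 had 26.2, 63.003 and 96.8 CPM without and 490.2, 499 and 615 CPM with, in each of the 3 libraries. The checkpoint ligand Cd274 had 5.84, 7.62 and 11.3 CPM without and 85.999, 185 and 269 CPM with, and C4b, a complement component, 51.5, 154 and 166 CPM without and 163, 359 and 414 CPM with. The split counted GTPase UMIs after thinning to 1000 UMIs, while the levels used all UMIs of each nucleus. Before thinning 29.4%, 75.2% and 74.3% of members held a GTPase UMI, so some nuclei counted as without one held one. By this split, nuclei without a GTPase UMI had higher Nlrc5 and C4b in both aged libraries than in the adult one. The part of depth in that difference was not tested. The SGC marker Bcan had 485, 461 and 435 CPM without and 542, 464 and 476 CPM with, while Megf10, Acsbg1, Ptprz1, Cdh20, Ednrb and Slc1a3 had between 0.735 and 1.66 times the level. The myeloid gene Csf1r had 2.04, 4.01 and 1.74 CPM without and 51.6, 3.22 and 0 CPM with, raised in the 34 adult nuclei and not in the aged ones. The leukocyte gene Ptprc had 17.1, 10.4 and 18.3 CPM without and 60.2, 14.5 and 61.5 CPM with, raised most in the adult library and aged replicate 2, and the part of such transcripts in the split was not tested.

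Of 17 genes tested for uptake and potassium handling, 5 rose and none fell (median 0.14), beside 3.53% and 6.29% of all genes. Slc1a2, the high-capacity glutamate transporter of astrocytes, had 34.7, 164 and 174 CPM (log2 fold change 2.16, SE 0.18, edgeR adjusted p = 1.75e-28), while Slc1a3, the glutamate transporter classically named in SGCs, had 108, 92.8 and 98.5 CPM and did not pass (log2 fold change -0.31, SE 0.17, edgeR adjusted p = 0.294). Both aged libraries lay above the adult for Slc1a2, while those for Slc1a3 lay just below it. The GABA transporter Slc6a11 had 21.5, 48.5 and 48.2 CPM (log2 fold change 1.04, SE 0.23, edgeR adjusted p = 1.52e-04). The sodium pump subunit Atp1b2 had 22.9, 51.3 and 44.1 CPM (log2 fold change 0.95, SE 0.23, edgeR adjusted p = 6.90e-04), and Abat, which breaks down GABA, rose by 0.49. All of these but Slc1a2 lost the call in DESeq2.

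Cholesterol synthesis genes fell in Schwann nuclei and for the most part gave no call in SGCs. In SGCs 0 of 23 genes tested rose and 2 fell (median -0.26), Nsdhl at 318, 220.1 and 230.4 CPM (log2 fold change -0.63, SE 0.15, edgeR adjusted p = 0.00117) and Fdps at 205, 158 and 136 CPM (log2 fold change -0.60, SE 0.16, edgeR adjusted p = 0.00328), the latter beside 271, 325 and 361 CPM in free RNA. The summed level was 2740.3, 2586 and 2260.0 CPM in SGCs and 3473, 1139 and 1240.2 CPM in myelinating Schwann nuclei, where 20 of 23 fell (median -1.82). The test of the difference passed for 11 of the 23, all with the age effect higher in SGCs, beside 0.534% of 12351 genes. These 11 were singled out after their values were seen. Hmgcs1, an enzyme early in the pathway, had 274, 315 and 254 CPM in SGCs and 440.2, 136 and 128 CPM in Schwann nuclei (difference in log2 fold change 1.78, SE 0.20, edgeR adjusted p = 0.00530). The squalene epoxidase Sqle had 86.7, 102 and 87.7 CPM and 103, 30.8 and 29.1 CPM (difference in log2 fold change 1.90, SE 0.28, edgeR adjusted p = 0.0117), and Idi1, which makes dimethylallyl diphosphate, 59.5, 62.7 and 53.9 CPM and 119, 38.2 and 34.001 CPM (difference in log2 fold change 1.67, SE 0.29, edgeR adjusted p = 0.0274). In the same Schwann sums myelin markers fell from 50524 to 18262 and 15598 CPM, and their part in this result was not tested. In all other kept nuclei edgeR called 0 of 24, with 0 at an unadjusted p under 0.05, and with DESeq2 the difference passed for 2.

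Other lipid genes were mixed. Of 28 fatty acid genes 3 rose and 2 fell, among them the desaturase Scd1 at 75.3, 174 and 125 CPM (log2 fold change 0.88, SE 0.17, edgeR adjusted p = 1.08e-05), with 214, 316 and 365 CPM in free RNA, and the lipogenic factor Srebf1 at 51.8, 94.6 and 91.3 CPM (log2 fold change 0.72, SE 0.18, edgeR adjusted p = 0.00217). The desaturase Fads2 and the elongase Elovl6 each fell by 0.53. Srebf1, Fads2 and Elovl6 lost the call in DESeq2, and Srebf1 also with the estimated free RNA subtracted. With 10% free RNA subtracted, 0 of the 28 fatty acid genes were called. Of 16 lipid carriers and efflux genes 1 rose and 4 fell, but with the estimated free RNA subtracted 2 rose and 1 fell. DESeq2 and subtraction of 10% free RNA each called 0 of them. So did thinning, the limit to nuclei of 2000 to 3000 genes and the gate without excluding UMIs. Pltp, a phospholipid transfer protein, had 2.69, 11.5 and 13.9 CPM (log2 fold change 2.08, SE 0.48, edgeR adjusted p = 4.93e-04), and Fabp3, a fatty acid carrier, 18.8, 4.85 and 4.62 CPM (log2 fold change -2.10, SE 0.37, edgeR adjusted p = 5.77e-07). Both lost the call in DESeq2 and with 10% free RNA subtracted. Clu and Fabp5 also fell, but free RNA held several times their level in SGCs, and both lost the call when it was subtracted at its estimated share.

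Adhesion genes moved both ways, with a few large rises. Among 30 genes of neuron-glia and synaptic adhesion 7 rose and 6 fell. Ntm, a GPI-anchored adhesion molecule of the IgLON family, had 236, 839.7 and 840.4 CPM (log2 fold change 1.71, SE 0.17, edgeR adjusted p = 1.86e-22), with the aged libraries level with each other. Gldn, the axon-glia protein of nodes, had 1.96, 6.89 and 10.3 CPM (log2 fold change 1.95, SE 0.63, edgeR adjusted p = 0.0242), though free RNA held 11.4, 34.7 and 20.003 CPM, the adult level lay under the filter, and the call was lost in DESeq2 and when free RNA was subtracted. Astn1 and Cntn4 had 16.6, 8.16 and 2.05 CPM (log2 fold change -1.64, SE 0.36, edgeR adjusted p = 1.94e-04) and 22.4, 9.95 and 9.75 CPM (log2 fold change -1.31, SE 0.30, edgeR adjusted p = 3.90e-04), and both are neuronal genes more abundant in free RNA. Of 26 cadherins 2 rose and 3 fell, and with the estimated free RNA subtracted 4 rose and 2 fell. Cdh6 had 621, 383 and 390.4 CPM (log2 fold change -0.81, SE 0.15, edgeR adjusted p = 3.47e-06), Cdh10 218, 371 and 373 CPM (log2 fold change 0.65, SE 0.16, edgeR adjusted p = 0.00113), and Cdh23 5401, 3563 and 2665 CPM (log2 fold change -0.92, SE 0.14, edgeR adjusted p = 1.43e-08). Cdh13 had 64.8, 30.6 and 36.4 CPM (log2 fold change -1.10, SE 0.21, edgeR adjusted p = 5.46e-06), with 419, 118 and 111 CPM in free RNA, and its direction turned when that was subtracted.

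Among 30 junction genes 1 rose and 3 fell. The scaffold Magi1 had 294, 616 and 618 CPM (log2 fold change 0.95, SE 0.16, edgeR adjusted p = 1.73e-07), and F11r, the junctional adhesion molecule A, 20.6, 5.87 and 4.10 CPM (log2 fold change -2.11, SE 0.35, edgeR adjusted p = 1.16e-07). Ctnna2 and Ctnnd2 fell by 0.54 and 0.43 on the log2 scale. Ctnna2 turned direction when free RNA was subtracted, and Ctnnd2 lost the call under another scaling. F11r lost the call in DESeq2 and with 10% free RNA subtracted. Gap junction genes gave no call.

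Matrix genes rose more often than they fell, 9 against 1 of 44 tested, beside 3.53% and 6.29% of all genes, but the balance depended on the processing. With the estimated share of free RNA subtracted 4 rose and 3 fell, with 10% subtracted 2 rose, without any excluding UMI 3 rose and 2 fell, and in DESeq2 3 rose. The type IV collagen chains Col4a5 and Col4a6, neighbours on the X chromosome and parts of basement membranes, had 43.3, 106 and 113 CPM (log2 fold change 1.21, SE 0.19, edgeR adjusted p = 6.83e-09) and 3.67, 25.3 and 29.8 CPM (log2 fold change 2.76, SE 0.35, edgeR adjusted p = 2.66e-13). Col18a1, a further basement membrane collagen, had 18.3, 51.02 and 41.6 CPM (log2 fold change 1.23, SE 0.23, edgeR adjusted p = 6.42e-06). The aged libraries lay near each other for all 3 and above the adult. Vcan, Hapln1, Cspg5, Itga1 and Sgcd also rose, by 0.59 to 1.18, and of these Vcan, Hapln1, Cspg5 and Itga1 lost the call in DESeq2, as did Col18a1. Col4a5, Col4a6 and Col18a1 lost it among nuclei of 2000 to 3000 genes. Col4a6 and Col18a1 lost it also after thinning and without excluding UMIs. The call of Tnc rested on aged replicate 1, with 10.2, 32.7 and 8.21 CPM, and its log2 fold change was -0.41 without that library. Tnr, a tenascin, fell, with 22.4, 5.61 and 9.75 CPM (log2 fold change -1.77, SE 0.32, edgeR adjusted p = 2.14e-06), and free RNA held 50.5, 37.4 and 45.1 CPM.

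Of 37 glial transcription factors tested 2 rose and 4 fell. Hes1, a Notch target, had 106, 28.1 and 40.02 CPM (log2 fold change -1.81, SE 0.19, edgeR adjusted p = 2.55e-18), and Id4, a helix-loop-helix inhibitor, 167, 99.5 and 82.1 CPM (log2 fold change -0.99, SE 0.16, edgeR adjusted p = 8.02e-08). Id3 and the glial identity factor Sox10 fell by 0.50 and 0.67. The hedgehog pathway factor Gli3 had 41.05, 101 and 122 CPM (log2 fold change 1.30, SE 0.19, edgeR adjusted p = 3.48e-10) and the neural crest factor Foxd3 5.30, 16.1 and 13.3 CPM (log2 fold change 1.36, SE 0.39, edgeR adjusted p = 0.00733), the second lost in DESeq2.

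Of 64 receptors for growth factors and peptides 8 rose and 6 fell, beside 3.53% and 6.29% of all genes, and with the estimated free RNA subtracted 4 rose and 5 fell. Erbb4, a neuregulin receptor, had 121, 27.04 and 26.7 CPM (log2 fold change -2.30, SE 0.19, edgeR adjusted p = 2.24e-29), above its free RNA level of 33.4, 23.2 and 20.003 CPM most clearly in the adult. Epha5, an ephrin receptor, had 88.5, 312 and 261 CPM (log2 fold change 1.57, SE 0.17, edgeR adjusted p = 5.25e-18). Fgfr3 had 3.43, 10.7 and 13.3 CPM (log2 fold change 1.65, SE 0.47, edgeR adjusted p = 0.00682), and P2ry14, a receptor for UDP-sugars, 9.14, 2.81 and 0.513 CPM (log2 fold change -2.33, SE 0.55, edgeR adjusted p = 5.60e-04), both on few UMIs and both lost in DESeq2. Of 49 secreted factors 5 rose and 4 fell. The cytokine Lif had 84.8, 23.7 and 16.4 CPM (log2 fold change -2.15, SE 0.21, edgeR adjusted p = 1.23e-21), and free RNA, at 70.8, 34.1 and 21.6 CPM, fell with it. The semaphorins Sema3e and Sema3d had 58.02, 172 and 188 CPM (log2 fold change 1.5, SE 0.17, edgeR adjusted p = 1.82e-15) and 7.75, 31.1 and 23.6 CPM (log2 fold change 1.72, SE 0.29, edgeR adjusted p = 3.40e-07). Bmp6 had 34.2, 92.1 and 114 CPM (log2 fold change 1.45, SE 0.19, edgeR adjusted p = 7.17e-12), opposite to free RNA, which fell from 218 to 25.8 and 20.8 CPM.

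Reactivity genes gave 4 rises and 2 falls of 21 tested. The complement gene C4b had 55.98, 206 and 209 CPM (log2 fold change 1.76, SE 0.18, edgeR adjusted p = 4.34e-21), and the serpin Serpina3n 10.1, 36.2 and 34.4 CPM (log2 fold change 1.68, SE 0.26, edgeR adjusted p = 1.28e-08), the latter beside 70.8, 141 and 156 CPM in free RNA. S100b had 316, 178 and 114 CPM (log2 fold change -1.22, SE 0.15, edgeR adjusted p = 6.51e-13), again under its free RNA level of 1103, 771 and 624 CPM. Cd44 rose by 0.55, and the call of Vim rested on aged replicate 1, without which its log2 fold change was 0.03 in place of 0.45. Of 30 genes of cell cycle arrest and senescence 2 rose and 1 fell, about the background share. Cdkn1a, an inhibitor of cyclin-dependent kinases, had 17.95, 11.5 and 8.21 CPM (log2 fold change -0.95, SE 0.32, edgeR adjusted p = 0.0319) and free RNA 53.9, 49.5 and 54.5 CPM, and it kept the call in 3 of 11 alternatives. Ccnd1 had 39.8, 92.8 and 67.2 CPM (log2 fold change 0.90, SE 0.19, edgeR adjusted p = 1.13e-04), and it kept the call in 8 of 12 alternatives. DESeq2 called 0 of the 28 genes of this list to which it gave an adjusted p.

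Clock genes changed in 6 of 19 tested, 5 higher and 1 lower, beside 3.53% and 6.29% of all genes. Cry1, a repressor of the clock, had 7.67, 29.3 and 23.6 CPM (log2 fold change 1.68, SE 0.30, edgeR adjusted p = 1.14e-06), Ciart 8.81, 27.3 and 27.7 CPM (log2 fold change 1.51, SE 0.29, edgeR adjusted p = 8.69e-06) and Per2 51.005, 108 and 98.5 CPM (log2 fold change 0.90, SE 0.18, edgeR adjusted p = 3.88e-05). The activator Arntl went the other way, with 34.4, 16.1 and 14.4 CPM (log2 fold change -1.29, SE 0.25, edgeR adjusted p = 1.04e-05). The time of day of collection was not given in the sources used here. All 4 lost the call in DESeq2. Of 22 immediate early genes 1 rose and 2 fell, with Egr3 at 40.3, 16.1 and 15.4 CPM (log2 fold change -1.48, SE 0.24, edgeR adjusted p = 8.54e-08). Egr3 lost the call in DESeq2 and with 10% free RNA subtracted, each of which called 0 immediate early genes. Of 24 chaperone genes 1 rose and 3 fell, while 2 rose and none fell with the estimated free RNA subtracted, and Hspa8, at 381, 319 and 239.6 CPM, lay far under its free RNA level of 2623, 2819 and 2819 CPM.

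Abundant noncoding RNAs fell in 6 of 18 tested and rose in none, but with the estimated free RNA subtracted 4 rose and 4 fell. Malat1, a nuclear RNA, took 86282, 23255 and 25380.1 CPM (log2 fold change -1.95, SE 0.14, edgeR adjusted p = 3.38e-41), and fell by 1.73 in both the Schwann sums and all other kept nuclei. Neat1, the RNA of paraspeckles, had 2246, 1148 and 1068 CPM (log2 fold change -1.14, SE 0.15, edgeR adjusted p = 6.19e-13). Bc1, a cytoplasmic RNA of neurons, had 317, 4.59 and 2.05 CPM (log2 fold change -6.54, SE 0.24, edgeR adjusted p = 2.39e-160), and in free RNA 1258, 22.9 and 16.6 CPM, so that it differed between the libraries as a whole. The same held for Gt(ROSA)26Sor, the transcript of the Rosa26 locus, with 21.6, 0.255 and 1.54 CPM (log2 fold change -5.05, SE 0.52, edgeR adjusted p = 3.64e-20) in SGCs and 13.1, 0.514 and 0.634 CPM in free RNA, although it passed the filter through the adult library only, so that a fall was the only possible call. Of 12 mitochondrially encoded genes tested 8 fell and none rose. mt-Co3, a subunit of complex IV, had 567, 245 and 170.3 CPM (log2 fold change -1.56, SE 0.15, edgeR adjusted p = 1.66e-22) and 2387, 2049 and 1783 CPM in free RNA. With free RNA subtracted at its estimated share, 3 of 11 rose and 6 fell, and with 10% subtracted 0 of 11 were called. DESeq2 and thinning each left 2 falls.

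The remaining genes with the largest age differences belong to no list. Rpe65, the isomerohydrolase of the retinoid cycle, had 2.04, 23.2 and 31.8 CPM (log2 fold change 3.59, SE 0.39, edgeR adjusted p = 5.57e-18), and Rasgrf1, an exchange factor for Ras, 9.30, 63.005 and 95.4 CPM (log2 fold change 2.93, SE 0.24, edgeR adjusted p = 5.50e-31). Both were higher in each aged library, but Rpe65, at 25 adult UMIs, passed the filter through the aged libraries, and its call was lost among nuclei of 2000 to 3000 genes, after thinning and without excluding UMIs. Tyrp1, a pigment cell enzyme, had 34.2, 3.06 and 4.62 CPM (log2 fold change -3.36, SE 0.33, edgeR adjusted p = 5.60e-22). Pln, an inhibitor of the calcium pump of the endoplasmic reticulum, had 107, 4 and 0 UMIs, passed the filter through the adult library only, and so could be called in 1 direction only (edgeR adjusted p = 2.92e-06). Lrp2, an endocytic receptor, had 21.1, 6.63 and 3.59 CPM (log2 fold change -2.06, SE 0.34, edgeR adjusted p = 1.20e-07), and Col19a1, a collagen, 175, 54.3 and 46.7 CPM (log2 fold change -1.90, SE 0.17, edgeR adjusted p = 1.22e-25). The antisense RNAs Sorbs2os and Bcas3os2 also fell (log2 fold changes -2.0 and -1.93), and whether strand was used in counting was not given in the sources used here.

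To compare age differences between 2 kinds of glia, the age effect in SGC sums was set against that in myelinating Schwann sums of the same libraries. The difference passed for 66 of 12351 genes (0.534%), 40 with the effect higher in SGCs and 26 with it lower. The alternatives tested for this difference were RLE scaling, no filter, over 2000 genes and DESeq2. Subtraction of free RNA, thinning and stricter gates were not applied to it. Of the genes given here, Lrp1b, Dcc, Pde4b, B3galt1, Erbb4 and Chsy3 kept the call in every alternative tested, as did Dgkb, to which DESeq2 gave no adjusted p. It was lost in DESeq2 for Cdh6, Lrrc7, Pdgfc, Gpr137c and Col16a1, and above 2000 genes for Cdh6, Pdgfc, Gpr137c, Epha5 and Cntnap5a. Lrp1b, a large endocytic receptor, had 109, 857 and 788 CPM in SGCs (log2 fold change 2.80, SE 0.18, edgeR adjusted p = 1.98e-52) and 142, 56.7 and 29.1 CPM in Schwann nuclei, higher in aged SGCs and lower in aged Schwann nuclei (difference in log2 fold change 4.51, SE 0.29, edgeR adjusted p = 8.81e-05). Free RNA held 389, 439.8 and 392 CPM of it, so the adult SGC level and all Schwann levels lay under free RNA and the aged SGC levels above. Dcc rose in SGCs, as given above (log2 fold change 1.79, SE 0.17, edgeR adjusted p = 2.23e-24), and had 19.2, 7.40 and 8.10 CPM in Schwann nuclei (difference in log2 fold change 3.24, SE 0.46, edgeR adjusted p = 0.0103). Epha5 stood at 29.96, 16.03 and 17.8 CPM in Schwann nuclei against its rise in SGCs (difference in log2 fold change 2.56, SE 0.36, edgeR adjusted p = 0.0103).

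The diacylglycerol kinase Dgkb had 37.1, 109 and 92.9 CPM in SGCs and 26.9, 10.5 and 4.86 CPM in Schwann nuclei (difference in log2 fold change 3.07, SE 0.45, edgeR adjusted p = 0.0117). The phosphodiesterase Pde4b had 78.02, 208 and 97.5 CPM and 118, 30.8 and 11.3 CPM (difference in log2 fold change 3.37, SE 0.28, edgeR adjusted p = 3.86e-04), with aged replicate 2 near the adult in SGCs. Cntnap5a had 33.9, 95.7 and 61.6 CPM and 34.6, 12.3 and 6.48 CPM (difference in log2 fold change 3.01, SE 0.41, edgeR adjusted p = 0.00935), and the galactosyltransferase B3galt1 55.4, 149 and 115 CPM and 49.2, 20.96 and 16.2 CPM (difference in log2 fold change 2.62, SE 0.33, edgeR adjusted p = 0.00740). All 4 passed the age test as higher in SGC sums and as lower in Schwann sums, though the aged Schwann levels were low. In SGCs the age call of Cntnap5a was lost in 5 of 12 alternatives and that of Pde4b in 3 of 12, and without aged replicate 1 the log2 fold change of Pde4b was 0.22 in place of 0.88.

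Erbb4 fell in SGCs and stood at 247, 387 and 507 CPM in Schwann nuclei, higher in both aged libraries (difference in log2 fold change -3.0, SE 0.22, edgeR adjusted p = 2.20e-04). Lrrc7, a postsynaptic scaffold, had 58.1, 17.1 and 14.4 CPM in SGCs (log2 fold change -1.99, SE 0.23, edgeR adjusted p = 2.58e-15) and 307, 299.6 and 249 CPM in Schwann nuclei (difference in log2 fold change -1.75, SE 0.23, edgeR adjusted p = 0.00877). Cdh6 fell in SGCs and had 44.6, 97.4 and 89.1 CPM in Schwann nuclei (difference in log2 fold change -1.79, SE 0.26, edgeR adjusted p = 0.0114). Chsy3, a chondroitin synthase, had 14.8, 8.67 and 3.59 CPM and 56.9, 160.3 and 199 CPM (difference in log2 fold change -2.76, SE 0.44, edgeR adjusted p = 0.0185). Cdh6 and Chsy3 thus moved on both sides, lower in aged SGCs and higher in aged Schwann nuclei. For Pdgfc, Gpr137c and Col16a1 the larger change was on the Schwann side. Pdgfc, a growth factor of the PDGF family, had 90.6, 114 and 105 CPM in SGCs and 10.8, 69.1 and 68.003 CPM in Schwann nuclei (difference in log2 fold change -2.41, SE 0.37, edgeR adjusted p = 0.0144), Gpr137c 44.7, 47.4 and 40.02 CPM and 31.5, 146 and 170.0 CPM (difference in log2 fold change -2.34, SE 0.32, edgeR adjusted p = 0.00935), and the collagen Col16a1 73.6, 114 and 125 CPM and 21.5, 185 and 146 CPM (difference in log2 fold change -2.31, SE 0.34, edgeR adjusted p = 0.0117).

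**Figure D4:**
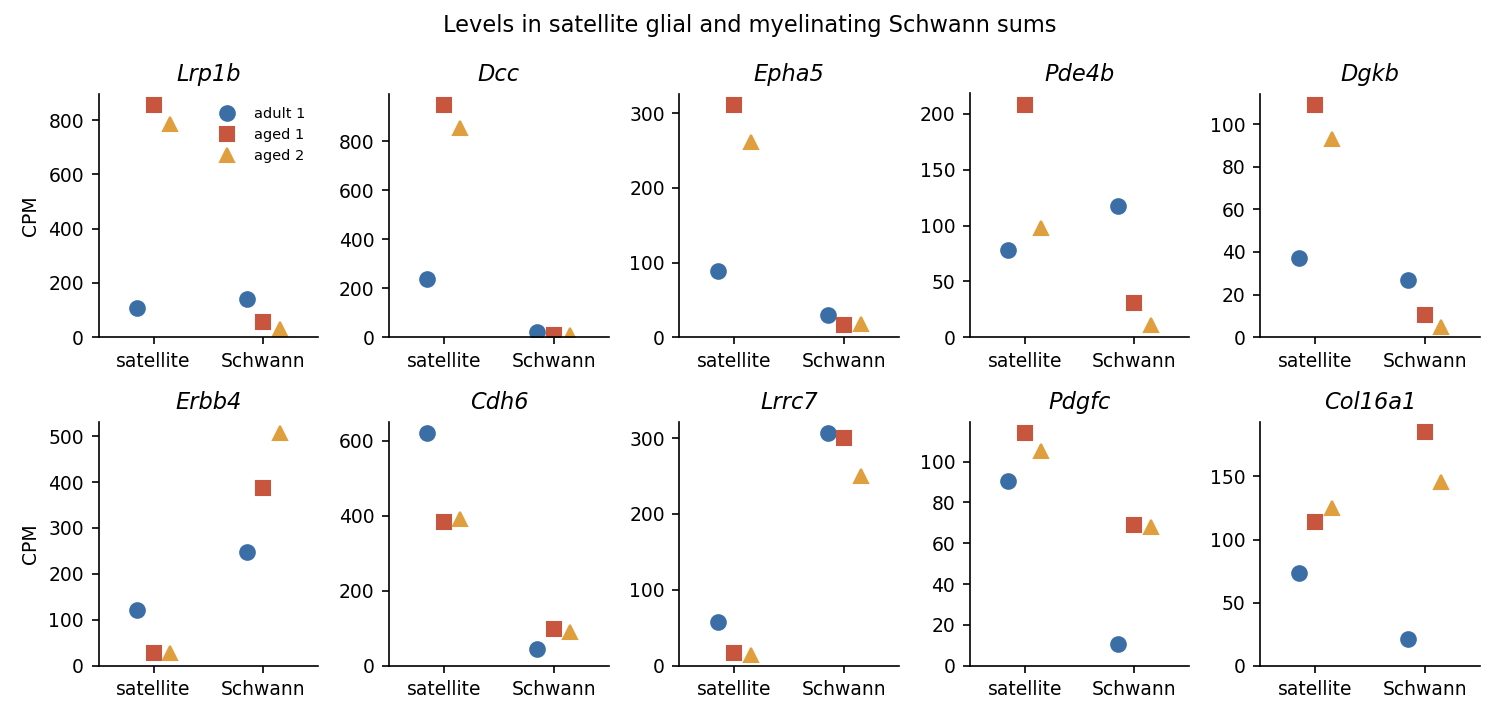
Levels (CPM, each panel from 0) of 10 genes whose age effect differed between SGC and myelinating Schwann sums, with 1 point per library. Lrp1b, Dcc, Epha5, Pde4b and Dgkb have both aged SGC points above the adult one, Erbb4, Cdh6 and Lrrc7 have them below it, and Pdgfc and Col16a1 differ mostly among the Schwann points.

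Among members of 1 library, most genes had a variance over mean near the 1 that counting alone gives. At means as low as 0.05 UMIs the ratio stays near 1 even where nuclei differ. It therefore does not show that most genes varied little. Over 3369 genes with a mean of at least 0.05 UMIs in nuclei thinned to 1000 UMIs, the median variance over mean was 1.10, 1.08 and 1.08. The 12 most variable genes in all 3 libraries were Map1b, Pde10a, Csmd1, Malat1, Anks1b, Camk1d, Nefh, Ntm, Meg3, Apoe, Ctnnd2 and Nefm. Map1b, Nefh, Nefm, Meg3, Camk1d and Apoe were more abundant in free RNA than in SGC nuclei, while the other 6 were more abundant in SGCs. Anks1b, a scaffold of synapses, had a variance over mean of 2.95, 2.83 and 2.07, and Ctnnd2 of 2.06, 1.99 and 2.36.

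Nuclei were then split by Anks1b, a split chosen after the values were seen and given without a test. With 2 or more Anks1b UMIs after thinning there were 476, 132 and 50 nuclei, and with none 2542, 237 and 136, at similar median depths. The G-protein regulator Rgs7 had 227, 218 and 165 CPM without and 446, 471 and 478 CPM with Anks1b UMIs, and the matrix protein Postn 60.8, 52.9 and 43.5 CPM without and 177, 232 and 125 CPM with. The potassium channel Kcnh8, Arhgap39 and Sorcs2 were also higher with Anks1b in all 3 libraries. The adhesion gene Cadm2 had 387, 963 and 906 CPM without and 171, 432 and 718 CPM with and C4b 64.6, 279 and 251 CPM without and 20.2, 115 and 155 CPM with, lower with Anks1b in each library. SGC markers moved both ways, Cdh20 at 1.40, 1.59 and 1.64 times the level with Anks1b and Bcan and Ptprz1 at 1.14 to 1.31 times, against 0.802, 0.843 and 0.597 times for Acsbg1 and 0.748, 0.960 and 0.707 times for Megf10.

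A split by Ctnnd2 gave a second group of genes, again without a test. Nuclei with no Ctnnd2 UMI numbered 285, 76 and 39, and those with 2 or more 2765, 317 and 167, the former with lower median depth (2932 against 3254, 5415 against 7558 and 4571 against 7813 UMIs). The nuclease-like gene Eepd1 had 286, 257 and 237 CPM without and 782, 578 and 713 CPM with Ctnnd2 UMIs, and the cationic amino acid transporter Slc7a2 197, 236 and 260.3 CPM without and 484, 487 and 523 CPM with. The bicarbonate transporter Slc4a4, Cdh11 and Shank2 were likewise higher with Ctnnd2. Adam23, a receptor of LGI proteins, had 214, 374 and 477 CPM without and 66.8, 172 and 129 CPM with, and Lgi4, a secreted glial protein of the same pathway, 468, 412 and 398 CPM without and 264, 263 and 244 CPM with. Cdh19 and Kcna6 were also lower with Ctnnd2 in each library. The gate marker Acsbg1 was higher with Ctnnd2, 377, 349 and 371 CPM without and 658, 549 and 653 CPM with, as were Megf10, Ptprz1 and Bcan by at most 1.68 times, while Ednrb was lower. Fibroblast Dcn was lower with Ctnnd2 in each library, and Scn7a, an excluding gene of Schwann cells, was 0.589, 1.15 and 0.700 times as high with Ctnnd2. The part of these transcripts and of depth in the split was not tested.

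**Figure D5:**
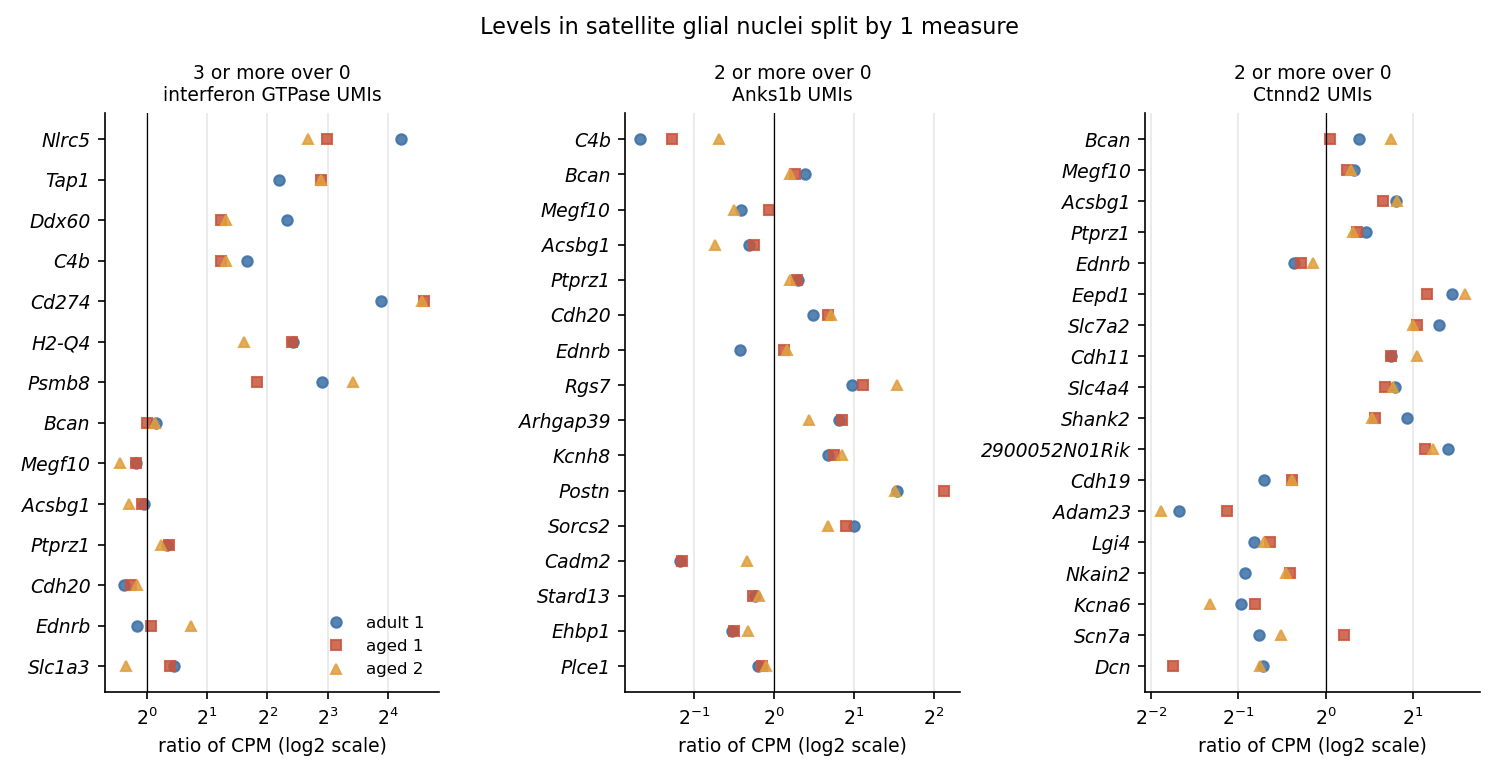
Ratio of CPM (log2 scale) between SGC nuclei with and without the transcripts named above each panel, per gene and library. Interferon genes lie 2.34 to 24.3 times higher in GTPase-rich nuclei in every library while SGC markers lie between 0.735 and 1.66, and the Anks1b and Ctnnd2 panels show genes on both sides of 1 with the 3 libraries mostly together. Not drawn in the GTPase panel are Csf1r (25.3, 0.803 and 0 times) and Ptprc (3.51, 1.39 and 3.36 times), in the order adult, aged replicate 1, aged replicate 2.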

How the data were processed

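The authors made the libraries by PIP-seq and counted UMIs with Pipseeker against mm10, and the deposited matrices hold counts, UMIs per gene and barcode, neither normalized nor filtered for cells. Barcodes with over 1000 genes were kept and gated as described. No doublet caller was run. The ratio rule removed only barcodes with many UMIs of the excluding genes, those of neurons, Schwann cells and fibroblasts, relative to marker UMIs. It set no limit on transcripts of other cells, such as myeloid, lymphoid, endothelial or mural cells. The deepest members held 95293, 91534 and 50960 UMIs (adult, aged replicate 1, aged replicate 2), and the part of doublets among members was not tested. Nuclei are not replicates, so UMIs were summed per library and gate. The sums were tested with edgeR 4.0.16 in R 4.3.3 (quasi-likelihood test, TMM scaling, filterByExpr, prior count 0.125, Benjamini-Hochberg adjustment over all genes tested, threshold 0.05), aged (n = 2 libraries) against adult (n = 1), with 1 residual degree of freedom and the lone adult library assumed to vary like the aged ones. Comparisons between gates had library as a block. Each SE given beside an edgeR p is the absolute log2 fold change divided by the square root of the test's F statistic. It is no spread measured among adult libraries. DESeq2 1.42.0 was an alternative, as were other scalings, filters, depth limits, gates and subtraction of free RNA. Nuclei were thinned and figures drawn in Python 3.11.15. The edgeR step was also run on simulated data as a check of the code, with no outcome given here. Of 32227 gene IDs, 32149 matched GENCODE M21 (99.76%).

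Named genes were the 12 largest rises and 12 largest falls past the threshold with at least 100 UMIs, an adult CPM outside the aged range, an established symbol, no role in the gate and a level in the higher group no lower than in free RNA of the same libraries. To these were added up to 4 genes per list, 12 higher and 6 lower against both Schwann gates, 6 each way for the difference of age effects, the 12 most variable genes and the ungated SGC markers. Other genes are named with their values as members of a list. A few genes that these rules name are not reported here. The members and lists were chosen with earlier results of these data known. The gate for myelinating Schwann nuclei was fixed on Prx, Ncmap, Drp2, Fa2h, Pllp, Cldn19, Mag and Mal, and that for non-myelinating Schwann nuclei on Scn7a, Adamts5, Gfra3, Matn2, Apod and L1cam. The sums held 1949123 to 12253827 UMIs, and PCR duplicates were collapsed only as far as UMIs allow, so intervals cover counting error only.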

Additional observations from a re-analysis of the deposited data

Results flagged for a closer look

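The results below, among others, were picked out because the age effect in SGC sums differed from that in myelinating Schwann sums of the same libraries by edgeR's test of the difference itself, at an adjusted p under 0.05. The values are differences in log2 fold change, aged over adult, SGC minus Schwann. The effect was higher in SGCs for Lrp1b (4.51), Pde4b (3.37), Dcc (3.24), Dgkb (3.07), Cntnap5a (3.01), B3galt1 (2.62) and Epha5 (2.56). It was lower in SGCs for Erbb4 (-3.0), Chsy3 (-2.76), Pdgfc (-2.41), Gpr137c (-2.34), Col16a1 (-2.31), Cdh6 (-1.79) and Lrrc7 (-1.75). Of the cholesterol genes it was higher in SGCs for Sc5d (1.93), Sqle (1.90), Hmgcs1 (1.78), Cyp51 (1.68), Idi1 (1.67), Fdft1 (1.56), Insig1 (1.54) and Msmo1 (1.42). In DESeq2 the difference was lost for Lrrc7, Cdh6, Pdgfc, Gpr137c and Col16a1 and for the cholesterol genes other than Hmgcs1, and Dgkb and Cntnap5a had no adjusted p. Above 2000 genes it was lost for Cdh6, Pdgfc, Gpr137c, Epha5, Cntnap5a, Idi1, Cyp51 and Insig1. No explanation of these differences was tested. In myelinating Schwann sums the summed level of myelin markers was also lower in both aged libraries, and its part in the differences was not tested.

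Groups of 1 and 2 libraries are too small to look for a library that stands apart from the others of its group.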

How the results depend on the processing

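With 1 adult library, no alternative separates age from that library, and genes at a few UMIs in the aged sums are resolved poorly. The 1480 age calls became 256 with DESeq2 (2047 genes had no adjusted p), 526 of 10798 among nuclei of 2000 to 3000 genes, 397 of 8522 after thinning, 519 of 9864 without any excluding UMI, 167 with 10% free RNA subtracted, and 888 with the estimated share subtracted, an alternative chosen after seeing the data. Without 1 aged library no test could be made, and 1476 to 1480 of the 1480 kept their direction. Another scaling, no filter, 1500 or 2000 genes, 5 or more marker UMIs and leaving out Malat1 gave 1401 to 1903 calls. Calls against the myelinating Schwann gate ran from 3012 to 4419 with 1 library left out (4748 with all). Against the non-myelinating gate they ran from 3627 to 5652 (5969 with all), with 3734 above 2000 genes and 680 for the stricter gate, also chosen after seeing the data. The difference of age effects passed for 66 genes, and for 170 with RLE scaling, 274 with no filter and 16 in DESeq2. Without either aged library it could not be tested, and 66 of the 66 kept their sign. The adult over aged share ratio of 3.35 was 2.85 above 1500 genes, 1.40 above 2000 genes, 3.0 with 5 or more marker UMIs, 5.84 without excluding UMIs, 3.43 when thinned nuclei were gated, and 3.3 to 3.39 with 1 aged library. With the estimated free RNA subtracted, log2 fold changes turned to 8.73 for Ctnna2, 5.48 for Cdh13, 7.24 for Hspb1, 10.9 for Hspa8 and 10.5 for Meg3, where the adult remainder was near 0. That of Cntnap5a was -0.0065 among nuclei of 2000 to 3000 genes. Where no cause is given, the cause was not tested. No paired analysis was possible because adult and aged libraries share only replicate number 1.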
